A study of Homo sapiens with 8 samples.

Results

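Binding of the transcription factor p63 was examined at the loci of 7 genes known as drivers or growth regulators of squamous carcinoma: PTHLH, FGFR2, PIK3CA, MYC, CCND1, CDK6 and CDKN2A. A listed p63 region belonged to a locus when its midpoint lay within a fixed hg19 window around the gene. The window of MYC also takes in flanking enhancers, and the windows covered 3.09 Mb together. They held 39 of the 15267 regions listed in either of 2 cell lines, 37 of 13829 in CAL27 and 19 of 5886 in SCC13. CAL27 and SCC13 are established human squamous cell carcinoma lines; CAL27 came from the tongue and SCC13 from skin. Both were labelled wild type and untreated, and both were profiled by chromatin immunoprecipitation with a p63 antibody followed by sequencing (ChIP-seq). The lines were grown in different media, CAL27 with serum and SCC13 in a serum-free keratinocyte medium with pituitary extract, epidermal growth factor and calcium, so line and medium cannot be told apart. Each group had 2 samples, and 2 further samples per line were titled none. For each line the authors deposited a single list of regions covering both of its p63 samples, with a chromosome, a start and an end for each region. No spread between replicates and no depth could be computed, so no p-value is given for any difference between the lines.

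TP63, the gene of p63, is expressed in basal cells of stratified epithelia and is retained in most squamous carcinomas, where p63 binds enhancers of epithelial genes, often far from promoters. The 7 genes act at successive steps of growth control. PTHLH encodes a secreted hormone and FGFR2 a growth factor receptor; PIK3CA encodes a kinase subunit that relays receptor signals, and MYC a transcription factor that responds to them. CCND1 encodes cyclin D1, which activates CDK4 and CDK6 and so opens the way into S phase, and the p16 product of CDKN2A inhibits both kinases. Amplification of CCND1, PIK3CA and MYC and loss of CDKN2A are recurrent in squamous carcinomas. The copy number of these loci in CAL27 and SCC13 was not examined here, and the counts and densities below are not adjusted for it.

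All 7 windows held at least 1 CAL27 region, and 5 held an SCC13 region; CDK6 and PIK3CA had none in SCC13. The CAL27 counts were 2 at PTHLH, 7 at FGFR2, 1 at PIK3CA, 19 at MYC, 4 at CCND1, 2 at CDK6 and 2 at CDKN2A. The SCC13 counts were 2 at PTHLH, 3 at FGFR2, 9 at MYC, 2 at CCND1 and 3 at CDKN2A. CAL27 thus had more regions at 5 loci, both lines had equal numbers at PTHLH, and SCC13 had more at CDKN2A. The CAL27 count over all windows was 1.95 times the SCC13 count, and the whole CAL27 list was 2.35 times as long as the SCC13 list. The lists carry no score and their calling threshold is not given in the sources used here, so absence of a region cannot be read as absence of binding.

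**Figure D1:**
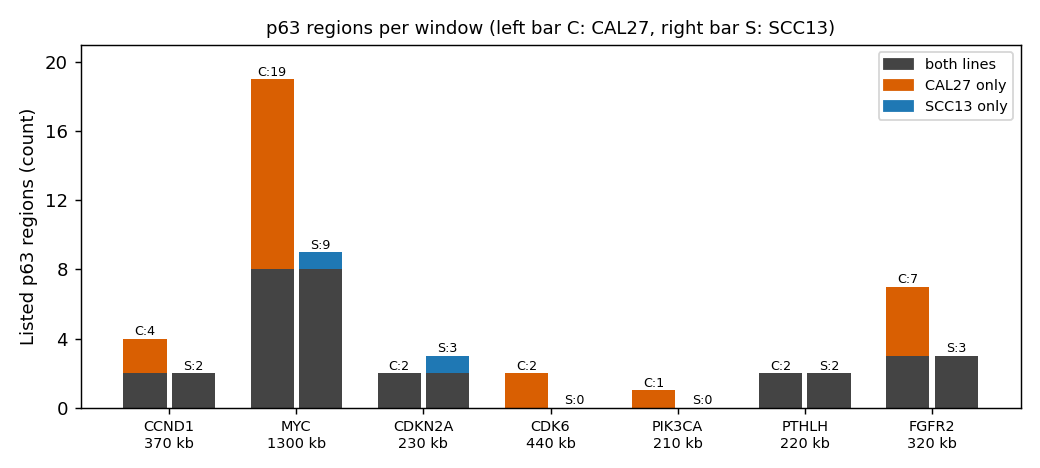
Number of listed p63 regions (vertical axis) in each window, with the gene and the window length in kb on the horizontal axis; the left bar of a pair is CAL27, the right bar SCC13, and colours separate regions listed in both lines from those listed in 1. MYC has the most regions in both lines (19 and 9), and CDKN2A is the locus with more SCC13 regions (3) than CAL27 regions (2).

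Most SCC13 regions at these loci were also CAL27 regions. Of the 19 SCC13 regions, 17 were listed in CAL27, or 89.5% (95% exact Clopper-Pearson interval 66.9 to 98.7), against 75.6% of the whole SCC13 list. Of the 37 CAL27 regions, the same 17 were listed in SCC13, or 45.9% (29.5 to 63.1), against 32.2% of the whole CAL27 list. Both whole-list percentages lie inside the intervals, so sharing at the loci was not distinguishable from that of the lists at these numbers. The intervals cover counting error only and treat regions as independent. All shared regions, at the loci and elsewhere, had the same start and end in both lists, as regions taken from a common merged set would. How the lists were made is not stated, so the shared percentages, and the widths of shared regions below, may not rest on separate calls in each line.

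Both p63 regions of the PTHLH window were listed in both lines. PTHLH encodes parathyroid hormone-related protein, the hormone behind the high blood calcium seen in some patients with squamous carcinoma. The window spanned 28010000 to 28230000 on chromosome 12, in band 12p11.22. The regions lay at 28151939 to 28153021, with a width of 1083 bp, and at 28185791 to 28186737, with a width of 947 bp, and their midpoints were 33.8 kb apart. Both were in the right-hand part of the window, and narrowing it by 50 kb on both sides left 1 region in each line. When each chromosome was divided into tiles of the window's length, laid from its first to its last listed region, 26.3% of tiles held at least 2 CAL27 regions and 9.58% at least 2 SCC13 regions. Such tiles take no account of gene content, open chromatin or gaps in the assembled sequence. Of the 1690 tiles with exactly 2 CAL27 regions, 14.6% also held exactly 2 SCC13 regions.

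The shared PTHLH region at 28185791 was the last in SCC13 before a long stretch without a listed region. The next SCC13 region lay at 31476963 to 31477296, a midpoint distance of 3291 kb, while CAL27 had 13 regions in between. Of the 303 distances between neighbouring SCC13 regions on chromosome 12, 0.660% were as long, or 2 with this one, and the median was 204 kb. Here and below, the distance taken is the longest of a line that touches the window. A fixed place falls into long distances more often than their share by number. These percentages therefore do not measure how rare such a distance is for a locus. In CAL27 the next region after the window was at 28296819 to 28297468, 67.1 kb beyond its end. On the other side the nearest CAL27 region was 246 kb before the window and the nearest SCC13 region 264 kb before it.

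The FGFR2 window had 3 shared regions in a row and 4 further regions in CAL27. FGFR2 encodes a receptor whose epithelial splice form binds fibroblast growth factors made by the stroma. The window spanned 123140000 to 123460000 on chromosome 10, in band 10q26.13. The shared regions lay at 123336904 to 123337866, at 123356225 to 123357187 and at 123370087 to 123371193, with widths of 963, 963 and 1107 bp. Their midpoints were 19.3 and 13.9 kb apart, so that all SCC13 regions of the window stood side by side with no line-specific region among them. The widest region listed in CAL27 only was 762 bp, at 123454204 to 123454965, and it was 5.42 kb inside the window's edge. It was narrower than every shared region of the window, and the other CAL27-only widths went down to 528 bp. A window narrowed by 50 kb on both sides held 4 CAL27 regions in place of 7.

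With 7 regions in 320 kb, FGFR2 had the highest density of the 7 loci in CAL27, at 21.9 regions per Mb (95% exact Poisson interval 8.79 to 45.1). The rest of chromosome 10 had 4.68 per Mb, measured from its first to its last listed region. Here and below, gaps in the assembled sequence were not left out of that length, which lowers the density of the rest. In SCC13 the window held 9.38 per Mb (1.93 to 27.4) against 2.00 per Mb on the rest of the chromosome. The CAL27 interval lay above the rest of the chromosome and the SCC13 interval included it. Here and below, Poisson intervals treat regions as placed independently, so they describe counts and test no excess. Among tiles of 320 kb, 2.52% held at least 7 CAL27 regions and 5.38% at least 3 SCC13 regions. The nearest regions outside were at 123540273 to 123540974 in CAL27, 80.6 kb beyond the end, and at 123844632 to 123845651 in SCC13, 385 kb beyond it. Before the window, the nearest were 47.3 kb away in CAL27 and 67.4 kb away in SCC13.

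PIK3CA had a single p63 region, listed in CAL27 only. PIK3CA encodes p110 alpha, the catalytic subunit of a phosphoinositide 3-kinase. The window spanned 178840000 to 179050000 on chromosome 3, across bands 3q26.32 and 3q26.33. The region lay at 178849836 to 178850605, 770 bp wide, and its midpoint was 10.2 kb inside the window's first edge, so that a window narrowed by 50 kb held none. A region listed in both lines lay 52.3 kb before the window, at 178786926 to 178788494, and the next on the other side, also in both, 637 kb beyond it at 179686998 to 179687839. From the window's only region to that next region, CAL27 had 837 kb between midpoints, a distance reached by 5.14% of neighbouring pairs on chromosome 3. Among tiles of 210 kb, 48.5% held at least 1 CAL27 region and 70.2% held no SCC13 region. Of the 3235 tiles with exactly 1 CAL27 region, 63.2% held no SCC13 region, so the PIK3CA count was among the common ones.

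**Figure D2:**
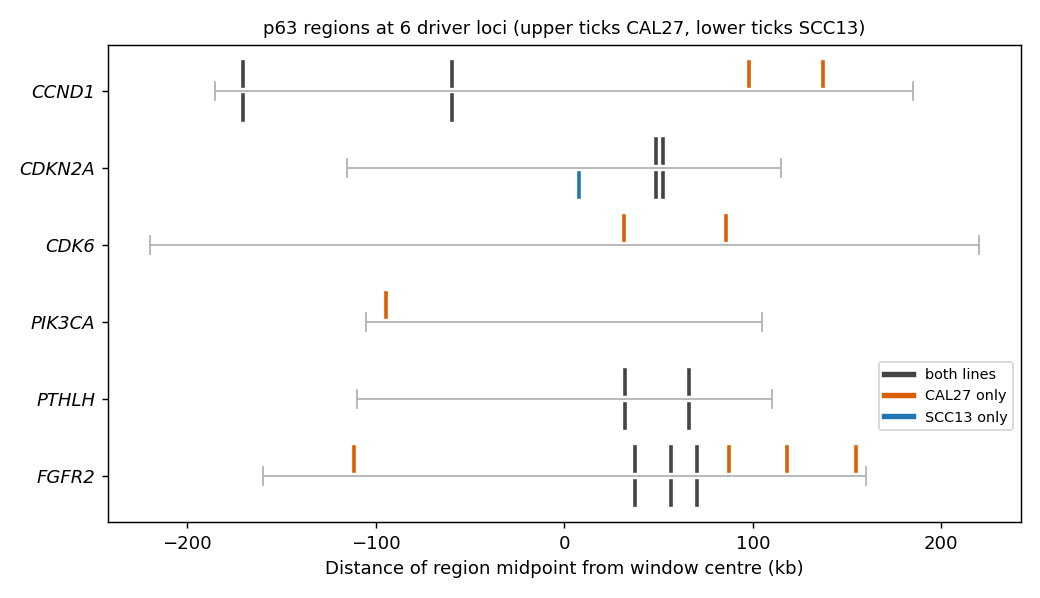
Positions of p63 region midpoints in 6 windows, as distance in kb from the centre of each window (horizontal axis); ticks above each line are CAL27 regions, ticks below it SCC13 regions, and end marks show the window. The 3 FGFR2 regions and the 2 PTHLH regions of SCC13 have a CAL27 tick at the same place, and the CDK6 and PIK3CA windows have no SCC13 tick.

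The MYC window held 20 of the 39 regions, 8 of them in both lines, 11 in CAL27 only and 1 in SCC13 only. MYC encodes a transcription factor of growth and ribosome production, and its flanks hold enhancers that act on it over long distances in several tumour types. The window was also the longest, from 128000000 to 129300000 on chromosome 8 in band 8q24.21, so its count has to be read per length. The window was drawn to take in flanking enhancers, and the loci were chosen with earlier results of these data known. Setting its density beside the rest of the chromosome or beside tiles is therefore no independent test of an excess. It had 14.6 regions per Mb in CAL27 (exact Poisson interval 8.80 to 22.8) against 3.74 on the rest of chromosome 8. In SCC13 it had 6.92 per Mb (3.17 to 13.1) against 2.11. Both intervals lay above the rest of the chromosome. Among tiles of 1300 kb, 2.99% held at least 19 CAL27 regions and 3.30% at least 9 SCC13 regions.

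The start of the MYC window held CAL27 regions but no SCC13 region. The first 6 regions, from 128047713 to 128354758, were all listed in CAL27 only, and the first SCC13 region stood 414 kb inside the window. The widest of these 6 was 1235 bp, at 128306342 to 128307576. Dividing the window into 5 stretches of 260 kb gave 3, 7, 4, 3 and 2 CAL27 regions and 0, 3, 3, 2 and 1 SCC13 regions from start to end. The second stretch therefore had the most CAL27 regions, and SCC13 had most of its regions in the second stretch and the one after it. CAL27-only regions made up 11 of the 19 CAL27 regions in the window and 9381 of 13829 in the whole CAL27 list. A run of such regions is therefore not read as a trait of this locus. The uneven placement over the stretches was not tested.

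The 8 shared regions of the MYC window lay between 128413148 and 129197539. In the second stretch they were 881 bp at 128413148 to 128414028, 734 bp at 128438880 to 128439613 and 588 bp at 128511471 to 128512058. The next stretch held 3 more, of 740 bp at 128644853 to 128645592, 1704 bp at 128672320 to 128674023 and 609 bp at 128680810 to 128681418. The 1704 bp region was the widest at any of the 7 loci; 96.9% of CAL27 regions and 95.5% of SCC13 regions were narrower. Its midpoint was 7.94 kb from that of the 609 bp region, the shortest distance between regions of a line in this window. The last shared regions were 950 bp at 128807468 to 128808417 and 855 bp at 129196685 to 129197539. Shared regions of this window thus ranged from narrow to the widest of all, unlike the 3 at FGFR2, which lay between 963 and 1107 bp.

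At 1 place in the MYC window each line had a region of its own beside the other's. SCC13 had a 1284 bp region at 128864314 to 128865597 and CAL27 a 1529 bp region at 128866069 to 128867597, with 471 bp between them. Both were wide for their lists: 84.4% of SCC13 regions and 94.6% of CAL27 regions were narrower. The SCC13 region was the only region of the window listed in SCC13 only, and the CAL27 region was the widest of the CAL27-only regions at the 7 loci. Of all 1438 SCC13-only regions, 0.765%, or 11, had a CAL27-only region within 1000 bp. This pair was singled out after its positions were seen.

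**Figure D3:**
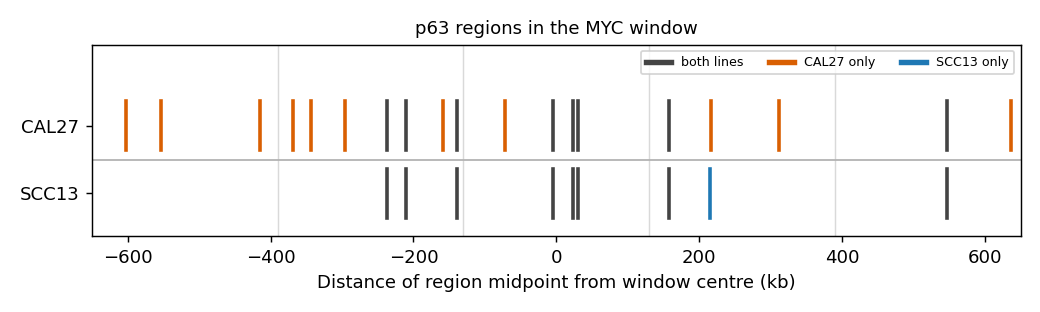
Positions of p63 region midpoints in the MYC window, in kb from the window's centre (horizontal axis), with CAL27 above and SCC13 below; pale vertical lines mark the 5 stretches of 260 kb. The first stretch has 3 CAL27 ticks and no SCC13 tick, and near 215 kb an SCC13-only and a CAL27-only tick stand side by side.

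Beyond the MYC window, the nearest regions were closer in CAL27 than in SCC13. A CAL27 region lay 1.68 kb before the window's start, at 127998082 to 127998554, and another 35.3 kb after its end, at 129334737 to 129335826. The nearest SCC13 regions outside were 103 kb before and 718 kb after it. From its last region in the window SCC13 had none for 820 kb, a distance reached by 17.2% of neighbouring pairs on chromosome 8, and CAL27 had 5 regions in that stretch.

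At CCND1 both lines shared 2 regions, and CAL27 had 2 more. The window spanned 69200000 to 69570000 on chromosome 11, in band 11q13.3, a band often amplified in squamous carcinoma of the head and neck. The shared regions were 1186 bp wide at 69213773 to 69214958 and 1108 bp wide at 69325066 to 69326173, and their midpoints were 111 kb apart. The CAL27-only regions were 877 bp wide at 69482732 to 69483608 and 673 bp wide at 69521867 to 69522539. The shared regions came first along the chromosome and were the wider ones. Narrowing the window by 50 kb on both sides left 2 regions in CAL27 and 1 in SCC13. Among tiles of 370 kb, 17.1% held at least 4 CAL27 regions and 18.1% at least 2 SCC13 regions. The densities were 10.8 per Mb in CAL27 (2.95 to 27.7) and 5.41 in SCC13 (0.655 to 19.5), and both exact Poisson intervals included the rest of chromosome 11, at 5.08 and 2.15 per Mb.

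A further shared region lay just outside the CCND1 window, 7.66 kb before its start, at 69191772 to 69192919. The first region inside was 14.4 kb from the same edge, so the edge fell between 2 shared regions. On the other side neither line had a region for 339 kb beyond the window, where both listed 69908783 to 69910215.

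CDK6 had 2 regions in CAL27 and none in SCC13. CDK6 encodes a kinase partner of cyclin D1. The window spanned 92130000 to 92570000 on chromosome 7, in band 7q21.2. The CAL27 regions were 961 bp wide at 92381274 to 92382234 and 1271 bp wide at 92435231 to 92436501, with midpoints 54.1 kb apart. Neither was narrow: 68.4% and 87.7% of CAL27 regions were narrower. Among tiles of 440 kb, 47.0% held at least 2 CAL27 regions and 51.0% held no SCC13 region, and of the 1001 tiles with exactly 2 CAL27 regions 40.0% held none from SCC13. The count of 0 allows up to 8.38 SCC13 regions per Mb (exact Poisson), and the rest of chromosome 7 had 2.45.

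The stretch without SCC13 regions extended past the CDK6 window. A region shared by both lines at 92093472 to 92094883, 35.8 kb before the window, was followed in SCC13 by none until 93696149 to 93697769. These 1603 kb between midpoints held 7 CAL27 regions, and 4.12% of the 388 distances between neighbouring SCC13 regions on chromosome 7 were as long. The CDK6 window, without an SCC13 region, had to lie inside a distance longer than itself. The 4.12% therefore does not measure how unusual the locus is. The first CAL27 region after the window was at 92617163 to 92617680, 47.4 kb beyond it.

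CDKN2A was the only locus of the 7 with more regions in SCC13 than in CAL27. CDKN2A encodes the cell cycle inhibitor p16 and, in another reading frame, the p53 stabiliser ARF. The window spanned 21870000 to 22100000 on chromosome 9, in band 9p21.3. Both lines shared a 904 bp region at 22033080 to 22033983 and a 443 bp region at 22037171 to 22037613, with midpoints 3.86 kb apart, the closest pair of regions of a line at the 7 loci. SCC13 alone had a 346 bp region at 21992563 to 21992908, the narrowest at any of the loci; 1.53% of SCC13 regions were narrower. Its midpoint stood 7.74 kb from the centre of the window and 40.8 kb from the nearest shared region. More SCC13 than CAL27 regions were found in 5.56% of all tiles of 230 kb. At least 3 SCC13 regions were found in 3.06% of these tiles and at least 2 CAL27 regions in 27.5%. Tiles without an SCC13 region cannot have more of them than of CAL27, and they made up 70.2% at the similar length of 210 kb. Among tiles with an SCC13 region the share with more SCC13 regions is therefore higher than 5.56%.

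The CDKN2A difference between the lines rested on that single narrow region. In SCC13 the window had 13.0 regions per Mb (exact Poisson interval 2.69 to 38.1) against 1.66 on the rest of chromosome 9, and in CAL27 8.70 (1.05 to 31.4) against 4.82. The SCC13 interval lay above the rest of the chromosome, and the CAL27 interval included it. Regions outside the window were shared on both sides, at 21833324 to 21834244, 36.2 kb before it, and at 22106960 to 22107624, 7.29 kb beyond it. With the window widened by 50 kb on both sides each line had 5 regions.

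**Figure D4:**
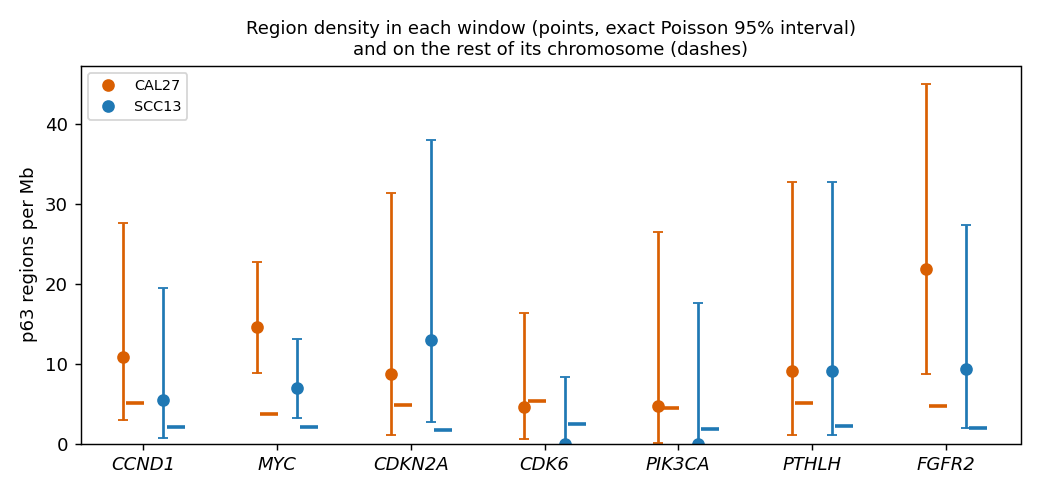
Regions per Mb (vertical axis) in each window for CAL27 and SCC13; points show the window with the exact Poisson 95% interval, and dashes show the rest of the same chromosome. The intervals of MYC in both lines, of FGFR2 in CAL27 and of CDKN2A in SCC13 lie above their dashes, and the other intervals include them. The intervals treat regions as placed independently, so their position relative to the dashes is descriptive and no test.

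Over all 7 windows CAL27 had 12.0 regions per Mb (exact Poisson interval 8.43 to 16.5) and SCC13 6.15 (3.70 to 9.60), against 4.72 and 2.01 over the whole lists. The MYC window held 19 of the 37 CAL27 regions and 9 of the 19 SCC13 regions. That window was drawn to take in flanking enhancers, and the loci were chosen with earlier results of these data known. The window of CDK6 and that of PIK3CA, at 4.55 and 4.76 CAL27 regions per Mb, were close to the rest of their chromosomes, at 5.40 and 4.41. The loci therefore ranged in CAL27 from the density of their chromosome at CDK6 and PIK3CA to several times that at MYC and FGFR2. Neighbouring windows in this order had overlapping intervals.

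Regions at the loci were of ordinary width. The median was 855 bp for the 37 CAL27 regions and 947 bp for the 19 SCC13 regions, against 791 and 862 bp in the whole lists. At least as wide as the median of their own list were 20 CAL27 regions, or 54.1%, and 12 SCC13 regions, or 63.2%. Of the 39 regions, 2 were 1500 bp or wider, or 5.13%, against 5.47% of all 15267; both were in the MYC window. The 17 shared regions had a median of 947 bp and a range of 443 to 1704 bp, and the 20 CAL27-only regions a median of 764 bp and a range of 508 to 1529 bp. In the whole series these medians were 934 and 723 bp. At FGFR2 and CCND1 every shared region was wider than every CAL27-only region, and at MYC the ranges overlapped. Widths say nothing here of how strongly p63 bound.

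**Figure D5:**
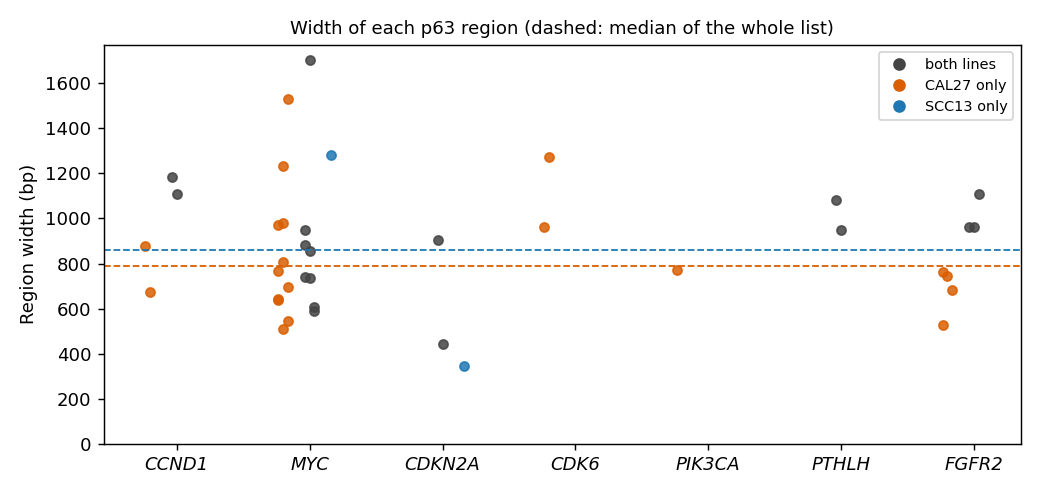
Width in bp (vertical axis) of each p63 region at the 7 loci, coloured by the list or lists that hold it; dashed lines mark the medians of the whole CAL27 list (791 bp) and the whole SCC13 list (862 bp). Shared regions lie above CAL27-only regions at CCND1 and FGFR2 and are mixed with them at MYC, and the narrowest region is the SCC13-only region at CDKN2A.

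Few regions of a locus were close neighbours. With neighbours joined when midpoints were within 12.5 kb, each line had 2 groups, the pairs at MYC and CDKN2A described above, and none had more than 2 regions. These pairs held 4 of 37 CAL27 regions, or 10.8%, and 4 of 19 SCC13 regions, or 21.1%. In the whole lists 25.2% of CAL27 regions and 12.3% of SCC13 regions had such a neighbour. Both pairs were shared, so the same 4 regions are counted in both lines. In CAL27 the median distance between neighbours in the window was below the median of its chromosome at 5 loci. It was 55.3 kb at MYC against 91.9 kb on chromosome 8, and 25.0 kb at FGFR2 against 92.2 kb on chromosome 10. The single distances were 3.86 kb at CDKN2A against 69.6 kb, 33.8 kb at PTHLH against 86.0 kb and 54.1 kb at CDK6 against 81.3 kb. At CCND1 the median was 111 kb, above the 66.9 kb of chromosome 11. In SCC13 the median was 64.8 kb at MYC against 180 kb, 16.6 kb at FGFR2 against 272 kb and 22.3 kb at CDKN2A against 214 kb. The single SCC13 distances were 33.8 kb at PTHLH against 204 kb and 111 kb at CCND1 against 197 kb. At CCND1 the SCC13 distance was thus below the median of its chromosome, unlike in CAL27. Distances in a window cannot exceed its length, which those along a chromosome can.

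Which part of a gene each region falls in was not analysed here, since the reference gene table is of another build, GRCh38. By order in that table alone, MYC is flanked by CASC11 and PVT1, long noncoding RNA genes, and PIK3CA by PIK3CA-DT and KCNMB3. CDKN2A is followed by LOC124902130 and then CDKN2B-AS1 and preceded by CDKN2A-AS1 and MTAP. CCND1 lies between LINC01488 and LOC124902704, with LTO1 next. CDK6 lies between LOC105375397 and LOC112268009, FGFR2 between LOC105378523 and LOC107984183, and PTHLH between LOC105369709 and LOC105369710. Only the nearest genes on either side were looked up, so a window may hold further genes that are not named here. A region in a window can therefore belong to another gene than the named one, and the assignment to the 7 genes is by position only.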

How the data were processed

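The authors deposited 1 list of p63 regions per line, with 3 columns (chromosome, start, end) and no other value per region. Per the labels, a list stands for both p63 samples of its line. Bowtie2, SAMtools 1.8, MACS2 and hg19 appear in the submitters' processing notes, without roles. Not given in the sources used here are the calling threshold, any control library and how replicates were merged. Positions are printed counted from 1, in hg19.

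Regions were assigned to windows by midpoint and matched between lists by an overlap of at least 1 bp. Tiles of a window's length ran end to end from the first to the last listed region of each chromosome. Intervals are at 95%, Clopper-Pearson for percentages and exact Poisson for densities. They cover counting error only and treat regions as independent, so an interval above a background value is no test. Bands and chromosome lengths came from circlize 0.4.16 under R 4.3.3. Other calculations used Python 3.11.15, numpy 2.4.6, scipy 1.17.1 and matplotlib 3.10.9. The matching of regions was tested on sampled and shifted CAL27 regions with artificial ones added, and the grouping and tiles on artificial regions. Named by position were all shared and SCC13-only regions, the widest CAL27-only region per window, and every region of windows with 6 or fewer; the first and nearby MYC regions and those outside windows were added after their values were seen. The loci and lists were chosen with earlier results of these data known. Other pathway genes, motifs and sequences were not analysed here, since no hg19 reference was used.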

Additional observations from a re-analysis of the deposited data

How the results depend on the processing

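No paired analysis was possible because each line has 1 list for both replicates, which also means that none could be left out. The total of 37 CAL27 and 19 SCC13 regions stayed within 1.5 times under any overlap with the window, windows widened or narrowed by 50 kb and neighbours counted once. It was 20 and 12 when only regions at least as wide as the median of their list were kept, as fewer regions then count. Groups of 2 or more neighbours numbered 2 per line, 1 per line when joined at 5000 bp, and 4 in CAL27 and 3 in SCC13 at 25000 bp, as the joining distance dictates. The stricter overlap rules could not change the shared percentages, since all shared regions have identical coordinates. Without the MYC window they were 50.0% in CAL27 and 90.0% in SCC13, and among regions at least as wide as their list's median 55.0% and 91.7%, inside the intervals of the main values. Median widths moved by less than the SD of the widths, and densities with wider windows stayed inside their intervals. Of 70 alternative counts of single loci, 17 moved by more than 1.5 times. Narrowing by 50 kb moved CCND1 to 2 (CAL27) and 1 (SCC13), in the same order PTHLH to 1 and 1, FGFR2 to 4 in CAL27 and PIK3CA to 0 in CAL27; widening by 50 kb moved CDKN2A to 5 and 5 and CDK6 to 4 and 1. The rest came from keeping only wide regions or counting neighbours once. Depth is unknown, which limits what an absent region can show.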
